A study of Mus musculus with 14 samples.

Results

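Rhd, Ermap, Cd24a, Bsg and Tmcc2 are 5 genes whose products sit in the surface or other membranes of red cells and their precursors, or, for Tmcc2, are abundant in erythroid cells. They were found by symbol in the platform annotation, which pairs 6 of the 15247 probes listed on the array with exactly 1 of these symbols: 2 probes for Cd24a (numbered 10373 and 14814) and 1 for each of the others. No probe listed with several symbols held any of them, and all 6 probes had a value on all 14 arrays. The arrays compared spleen RNA of the mouse strains AcB55 (6 arrays) and AcB61 (8 arrays) with spleen RNA of A/J mice, which was hybridised as the second channel of each array. AcB strains are recombinant congenic mice, bred from A/J and C57BL/6 so that segments of the C57BL/6 genome lie on an A/J background. From published work on these strains, both are known to carry a defective copy of Pklr, the gene of red cell pyruvate kinase, together with anaemia and an enlarged spleen. The series is named for resistance to malaria. The labels give no infection, treatment, sex, age or number of animals for any group, so the comparison described is that of strains only. They do not say whether arrays of a strain came from separate animals, so the p-values measure only how far arrays differed, and that part may be technical. There was no array of A/J against A/J, so the spread of the reference strain was not measured.

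Each value is a log2 ratio of the strain to A/J, so 1 stands for a doubling. On all arrays the first channel is labelled with the strain and the second with A/J, and a positive value was therefore read as higher in the strain. That direction is likely rather than stated, because the dyes are not given, and base 2 was taken for the logarithm. Spot intensities were not used here, so the RNA level of one gene cannot be set against that of another, and no marker can be called absent. In bulk spleen RNA, fewer cells of a type and less RNA per cell cannot be told apart.

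The surface of the red cell is built up during the last divisions of its precursors, when the membrane skeleton, the anion exchanger and the blood group proteins are assembled. In mice the spleen is itself a site of red cell production, and its share of precursors grows when red cells are lost. Rhd encodes the Rh blood group protein of the ammonium transporter family, held in the membrane in a complex with Rhag. Ermap encodes the erythroid membrane-associated protein, a relative of the butyrophilins that carries the Scianna blood group in humans. Cd24a encodes heat-stable antigen, a small, heavily glycosylated protein tethered by a lipid anchor, found on red cell precursors but also on immature B cells and granulocytes. Bsg encodes basigin (CD147), an immunoglobulin-like protein that escorts the monocarboxylate transporters to the surface and carries the Ok blood group in humans. Tmcc2 encodes a transmembrane protein with coiled coils that is found at the endoplasmic reticulum, so it is no surface protein, and its transcript is abundant in late erythroid cells.

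RNA of Tmcc2, Rhd and Bsg was higher than in A/J in both strains. Tmcc2 and Rhd rose by 2.69-fold and 2.19-fold in AcB55, the highest of the 6 probes there, and by 1.83-fold and 1.78-fold in AcB61, where Cd24a probe 10373 was at 1.83-fold too. Ermap was slightly lower than in A/J in AcB55, and did not pass the test in AcB61. The 2 probes of Cd24a were both higher than A/J in AcB61 but pointed in opposite directions in AcB55. With the probes of a gene averaged, 4 of the 5 genes passed in AcB55, 3 higher and 1 lower, where 20.7% of the 13045 features tested passed, 9.77% higher and 10.9% lower. In AcB61 4 of 5 passed, all higher, against 23.8% of features, 10.5% higher and 13.3% lower. Between the strains 2 of 5 passed, Cd24a and Ermap, both higher in AcB61. There 12.3% of features passed, 5.29% higher and 6.98% lower in AcB61. These counts are from limma with Benjamini-Hochberg adjustment over all features at 0.05. The 5 genes and the gene lists below were chosen with earlier results of these data known. Their counts beside the shares are therefore a description and not a test.

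**Figure D1:**
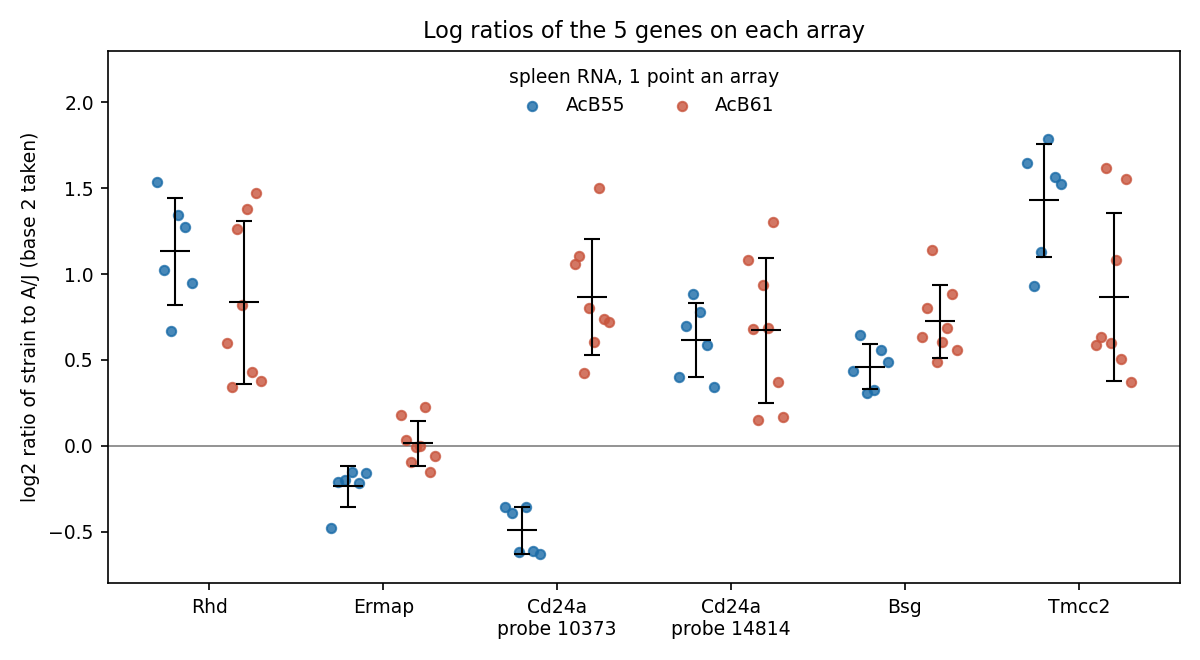
Log2 ratio to A/J (vertical axis) of each probe on the 6 AcB55 arrays (blue) and the 8 AcB61 arrays (red); each point is 1 array, and the black bars are the mean and SD. Tmcc2, Rhd, Bsg and Cd24a probe 14814 lie above 0 on all 14 arrays, while Cd24a probe 10373 lies below 0 on the 6 AcB55 arrays and above 0 on the 8 AcB61 arrays.

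The arrays of a strain were not all alike, which bears on several of the values. Correlations were taken over all probes, with those of a gene averaged. AcB61 arrays 3, 5 and 7 correlated with each other at 0.71 to 0.79, and arrays 2, 6 and 8 at 0.79 to 0.84. Across those sets the correlation was -0.083 to 0.16, and arrays 1 and 4 lay between them, at 0.37 to 0.64 with the others. The sets are numbered by accession order and no label separates them: the titles carry numbers whose leading digits are shared within each of 4 series in AcB61, and arrays 2, 3 and 4 share one series and arrays 6, 7 and 8 another. The label text breaks off at a mention of dye swaps, and the dyes of each array are not given. Whether the sets follow the dyes was not tested. In AcB55, arrays 1 and 2 correlated with the AcB61 arrays at 0.21 to 0.52, and the other 4 at -0.019 to 0.26. Results of the 5 genes that rest on these arrays are therefore given with and without them. Differences between the strains for other genes are given with all arrays only.

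The promoter windows of Rhd, Ermap and Tmcc2 are shown because the RefSeq promoter set used held no window for Cd24a or Bsg. They are the 250 bases before the RefSeq transcript start in build GRCm38.p6, written 5′ to 3′ on the strand of the gene. Capitals mark the letters GATAA, the core read by GATA factors, and CACCC, the core read by erythroid Krüppel-like factors, in either orientation, so a match on the other strand reads TTATC or GGGTG. No matches overlap each other. The Rhd window is chr4:134864286-134864535 on the plus strand, the Ermap window chr4:119189996-119190245 on the minus strand, and the Tmcc2 window chr1:132367949-132368198 on the minus strand, at the most downstream of the 3 Tmcc2 starts listed.
Rhd: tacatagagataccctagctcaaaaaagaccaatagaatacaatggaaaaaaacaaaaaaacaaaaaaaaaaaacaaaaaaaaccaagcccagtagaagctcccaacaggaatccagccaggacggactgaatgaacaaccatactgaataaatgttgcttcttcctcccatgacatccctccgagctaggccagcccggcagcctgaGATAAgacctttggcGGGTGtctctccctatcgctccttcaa
Ermap: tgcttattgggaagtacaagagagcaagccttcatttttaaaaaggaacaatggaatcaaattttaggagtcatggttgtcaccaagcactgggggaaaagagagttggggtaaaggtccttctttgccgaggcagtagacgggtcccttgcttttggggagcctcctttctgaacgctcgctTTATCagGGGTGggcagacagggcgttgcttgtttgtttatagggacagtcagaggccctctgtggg
Tmcc2: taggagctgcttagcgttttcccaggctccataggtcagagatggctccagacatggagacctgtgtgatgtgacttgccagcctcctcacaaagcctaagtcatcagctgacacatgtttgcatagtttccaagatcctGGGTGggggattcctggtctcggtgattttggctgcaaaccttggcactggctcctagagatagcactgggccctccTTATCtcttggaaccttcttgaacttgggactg
Each of the 3 windows holds 1 GATAA and 1 CACCC. In Rhd they lie 42 to 38 and 27 to 23 bases before the start. In Ermap they lie 67 to 63 and 60 to 56 bases before it. In this Tmcc2 window the GATAA lies 33 to 29 bases and the CACCC 110 to 106 bases before the start. The other two Tmcc2 starts have no GATAA and 2 and 1 CACCC. Of 32851 windows of the same length before RefSeq starts, 22.6% hold GATAA, 52% hold CACCC and 10.1% hold both, so these letters are common. A match describes the sequence and shows no binding, and the part of these motifs in the RNA values was not tested.

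Tmcc2 had the highest ratio to A/J among the 6 probes in AcB55. Its log2 ratios there ran from 0.93 through a median of 1.54 to 1.79, with a mean of 1.43 ± 0.33 (SD, n = 6). In AcB61 they ran from 0.37 through 0.61 to 1.62, with a mean of 0.87 ± 0.49 (SD, n = 8). All 14 arrays were above 0, but the AcB61 values were split, with arrays 3, 7 and 5 at 1.62, 1.55 and 1.08 and the other 5 at no more than 0.63. The rise over A/J passed in AcB55 (limma adjusted p = 3.04e-06) and in AcB61 (limma adjusted p = 0.000117). The difference of AcB61 minus AcB55 was -0.56 (95% interval -0.98 to -0.15) and missed the threshold over all features (limma adjusted p = 0.0699). An exact two-sided permutation of the strain labels for this single value gave p = 0.0363. Left without AcB61 arrays 3, 5 and 7, the AcB61 mean was 0.54 and the difference was -0.89 (limma adjusted p = 0.00049). Without arrays 2, 6 and 8 the mean was 1.09 and the difference -0.34 (adjusted p = 0.234), so the call between the strains turns on which AcB61 arrays are used. Without AcB55 arrays 1 and 2 the difference was -0.63 (adjusted p = 0.0692). The call was also made when AcB55 array 2 (adjusted p = 0.0392), AcB61 array 3 (0.0209) or AcB61 array 7 (0.028) was left out on its own.

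Rhd followed Tmcc2 from array to array. Its log2 ratios in AcB55 ran from 0.67 through 1.15 to 1.53, with a mean of 1.13 ± 0.31 (SD, n = 6). In AcB61 they ran from 0.34 through 0.71 to 1.47, with a mean of 0.83 ± 0.47 (SD, n = 8). Every array was above 0, and the strains overlapped. The same 3 AcB61 arrays stood highest, with 1.26 to 1.47 on arrays 3, 5 and 7, 0.34 to 0.43 on arrays 2, 6 and 8, and 0.60 and 0.82 on arrays 1 and 4. The rise passed in AcB55 (limma adjusted p = 2.21e-05) and in AcB61 (limma adjusted p = 0.000121). The difference between the strains was -0.30 (95% interval -0.70 to 0.10, limma adjusted p = 0.33), which leaves room for a difference in either direction. Without AcB61 arrays 3, 5 and 7 the AcB61 mean was 0.51 and the difference -0.62 (adjusted p = 0.00446). Without arrays 2, 6 and 8 they were 1.11 and -0.027 (adjusted p = 0.93), and without AcB55 arrays 1 and 2 the difference was -0.22 (adjusted p = 0.538).

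**Figure D2:**
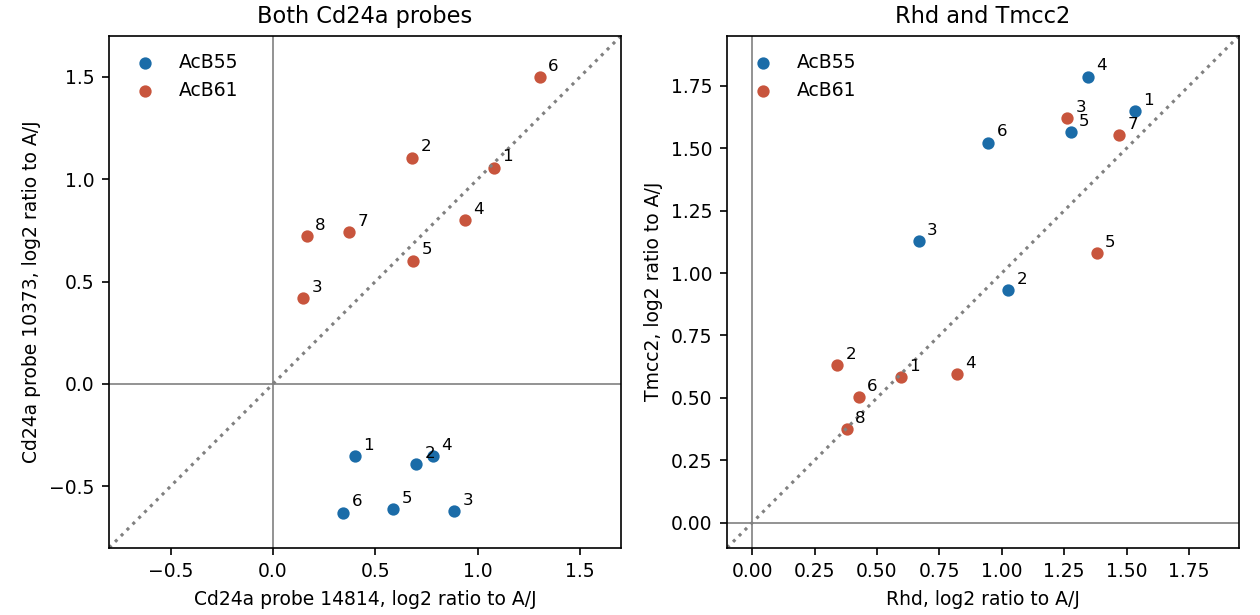
Left, log2 ratio to A/J of Cd24a probe 10373 (vertical) against probe 14814 (horizontal); right, of Tmcc2 (vertical) against Rhd (horizontal); each point is 1 array, numbered within its strain, and the dotted line marks equal values. The AcB55 arrays lie below 0 for probe 10373 alone, and AcB61 arrays 3, 5 and 7 lie with the AcB55 arrays at the upper end for Rhd and Tmcc2.

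The AcB61 arrays that were highest for Rhd and Tmcc2 did not stand out by the red cell precursor markers. The mean log2 ratio of the 4 measured markers of that list (Slc4a1, Alas2, Tfrc and Hba-a1, of 10 listed) was 0.67 to 0.68 on arrays 3, 5 and 7 and 0.65 to 0.78 on arrays 2, 6 and 8. The 5 erythroid regulators measured, of 17 listed, were Ldb1, Bcl2l1, Bnip3l, Foxo3 and Tfrc. They averaged 0.32 to 0.55 on arrays 3, 5 and 7 and 0.25 to 0.30 on arrays 2, 6 and 8. The 25 other red cell surface and membrane genes averaged 0.16 to 0.19 and 0.067 to 0.15 in that order. Both lists thus ran in the direction of Rhd and Tmcc2, but they are not separate. Tfrc is on both and among the precursor markers, and Slc4a1 is on the surface list and among those markers. The 12 haem and globin genes overlapped, at 0.59 to 0.69 and 0.55 to 0.67. Among the lists of other cell types, those of granulocytes, macrophages and platelets did not overlap between the sets. The 4 granulocyte markers averaged 0.27 to 0.49 on arrays 3, 5 and 7 and 0.61 to 0.75 on arrays 2, 6 and 8. The 6 macrophage markers averaged -0.09 to -0.0093 and -0.33 to -0.20, and the 2 platelet markers -0.66 to -0.50 and -0.33 to -0.28, in the same order of sets. The other lists overlapped, with dividing cells at 0.55 to 0.80 and 0.58 to 0.65. Stroma, vessels and fat were at -0.32 to -0.018 and -0.29 to -0.21. The 1 T cell marker was at -0.13 to 0.22 and -0.17 to -0.0078, and the 1 B cell marker at -0.80 to -0.65 and -0.78 to -0.38. The part of these lists and cell types in the Rhd and Tmcc2 values was not tested.

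Cd24a gave a different answer for each of its probes. Probe 10373 was below A/J on all AcB55 arrays, from -0.63 through -0.50 to -0.35, with a mean of -0.49 ± 0.14 (SD, n = 6). It was above A/J on all AcB61 arrays, from 0.42 through 0.77 to 1.50, with a mean of 0.87 ± 0.34 (SD, n = 8). The strains did not overlap on this probe, and the lowest AcB61 array lay 0.42 above 0 while the highest AcB55 array lay below it. Fitted probe by probe over 14605 probes, the fall in AcB55 (limma adjusted p = 0.00122), the rise in AcB61 (limma adjusted p = 1.76e-06) and the difference of 1.36 (95% interval 1.09 to 1.64, limma adjusted p = 7.93e-06) all passed. The exact permutation of the strain labels gave p = 0.000333.

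Probe 14814 was above A/J in both strains. It ran from 0.34 through 0.64 to 0.88 in AcB55, with a mean of 0.62 ± 0.21 (SD, n = 6). In AcB61 it ran from 0.15 through 0.68 to 1.30, with a mean of 0.67 ± 0.42 (SD, n = 8). The strains overlapped throughout, and the difference was 0.056 (95% interval -0.29 to 0.40, limma adjusted p = 0.863). Both rises passed (limma adjusted p = 0.00117 in AcB55 and 0.000184 in AcB61). The fall seen in AcB55 thus depends on the probe, whereas the rise in AcB61 was seen with both.

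The gap between the Cd24a probes was unusual for this array in AcB55. Among 786 genes with 2 probes on every array, the strain means of the probes differed by a median of 0.13 in AcB55 and 0.083 in AcB61. For Cd24a they differed by 1.11 in AcB55, where no gene had a larger gap, and by 0.20 in AcB61, where 150 genes did. The sequences of the probes were not used here, so which transcripts each one reads was not examined. With both probes averaged, Cd24a was 0.061 ± 0.13 (SD, n = 6) in AcB55 (limma adjusted p = 0.765) and 0.77 ± 0.36 (SD, n = 8) in AcB61 (limma adjusted p = 1.2e-05). The averaged difference of 0.71 (95% interval 0.42 to 1.00, limma adjusted p = 0.00402) is carried by probe 10373.

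The Cd24a result held without the arrays that stood apart. The difference on probe 10373 was 1.53 (limma adjusted p = 1.2e-06) without AcB61 arrays 3, 5 and 7, and 1.22 (adjusted p = 7.4e-06) without arrays 2, 6 and 8. Without AcB55 arrays 1 and 2 it was 1.42 (adjusted p = 6.86e-05). Probe 14814 did not pass between the strains in any of these fits, with differences of 0.22, 0.028 and 0.023.

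Cell types other than red cell precursors also carry Cd24a, and their markers are given beside it. Blnk, an adaptor of the B cell receptor and the 1 of 12 B cell markers measured, was lower than A/J in both strains, by -1.07 ± 0.30 (SD, n = 6) in AcB55 and -0.58 ± 0.20 (SD, n = 6) in AcB61. It was higher in AcB61 than in AcB55 by 0.49 (limma adjusted p = 0.0243), the direction of Cd24a probe 10373. The granulocyte markers, S100a9, Ltf, Lcn2 and Hdc, were 4 of 10 listed, and their mean ran from -0.045 to 1.31 over the AcB55 arrays and from 0.27 to 0.75 over the AcB61 arrays. Within AcB55 their mean was 1.05 and 1.31 on arrays 1 and 2 and at most 0.15 on the other 4. Probe 10373 on those arrays was -0.35 and -0.39, against -0.63 to -0.35 on the other 4. None of the 4 granulocyte genes passed between the strains, where 12.3% of all features did. The part of B cells and granulocytes in the Cd24a values was not tested.

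Bsg rose in both strains, with a smaller spread between arrays than Rhd or Tmcc2. Its log2 ratios ran from 0.31 through 0.46 to 0.65 in AcB55, with a mean of 0.46 ± 0.13 (SD, n = 6), a 1.38-fold rise. In AcB61 they ran from 0.49 through 0.66 to 1.14, with a mean of 0.72 ± 0.21 (SD, n = 8), a 1.65-fold rise. All 14 arrays were above 0, and the strains overlapped between 0.49 and 0.65. Both rises passed (limma adjusted p = 0.000161 in AcB55 and 7.13e-07 in AcB61). AcB61 was higher than AcB55 by 0.26 (95% interval 0.063 to 0.47), which missed the threshold over all features (limma adjusted p = 0.0777). The exact permutation of the strain labels for this value alone gave p = 0.017. Its values overlapped between the AcB61 sets, 0.60 to 1.14 on arrays 3, 5 and 7 and 0.56 to 0.80 on arrays 2, 6 and 8. The AcB61 mean was 0.63 without arrays 3, 5 and 7 and 0.75 without arrays 2, 6 and 8. The difference between the strains was 0.17 (adjusted p = 0.154) without the first set and 0.29 (adjusted p = 0.0707) without the second, and 0.30 (adjusted p = 0.0752) without AcB55 arrays 1 and 2.

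Ermap was the one gene of the 5 with no rise. In AcB55 its log2 ratios ran from -0.48 through -0.21 to -0.15, with a mean of -0.24 ± 0.12 (SD, n = 6), or 0.85 of the A/J level. In AcB61 they ran from -0.15 through -0.0057 to 0.23, with a mean of 0.015 ± 0.13 (SD, n = 8), and 3 arrays were above 0 and 5 below. All 6 AcB55 arrays were below 0, and array 1, at -0.48, was the lowest. The fall in AcB55 passed (limma adjusted p = 0.00572), and AcB61 did not (limma adjusted p = 0.878, 95% interval -0.089 to 0.12). AcB61 was higher than AcB55 by 0.25 (95% interval 0.093 to 0.41, limma adjusted p = 0.0381), and the exact permutation gave p = 0.00133.

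The Ermap calls were near the threshold. Leaving out any 1 of AcB55 arrays 1, 3, 4, 5 and 6 or AcB61 arrays 1, 2, 4 and 6 ended the call between the strains, with adjusted p from 0.0518 to 0.0769, while the difference stayed between 0.20 and 0.27. Without AcB55 arrays 1 and 2 the fall in AcB55 was -0.18 and no longer passed (adjusted p = 0.07). Without them the difference between the strains was 0.20 (adjusted p = 0.108). It was 0.31 (adjusted p = 0.0129) without AcB61 arrays 3, 5 and 7 and 0.22 (adjusted p = 0.0711) without arrays 2, 6 and 8.

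**Figure D3:**
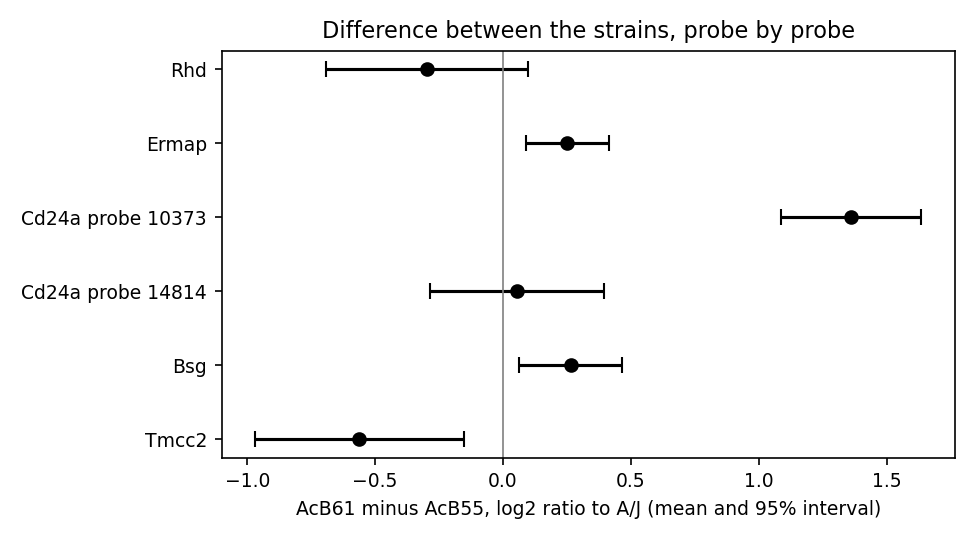
Difference of AcB61 minus AcB55 in log2 ratio to A/J (horizontal axis) for each of the 6 probes, from the fit over all 14605 probes; points are means and bars 95% intervals. The interval of Cd24a probe 10373, 1.09 to 1.64, lies apart from that of probe 14814, -0.29 to 0.40.

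For single values, exact tests were limited by the number of arrays. Turning the sign of whole arrays, two-sided, cannot give a p below 0.0312 with 6 arrays or below 0.00781 with 8. Rhd, Bsg, Tmcc2, Ermap and each Cd24a probe reached p = 0.0312 in this exact test in AcB55. Rhd, Bsg, Tmcc2 and each Cd24a probe reached p = 0.00781 in AcB61, where Ermap had an exact p of 0.75. These p-values are unadjusted. Over the 5 genes and the single Cd24a probes, 14 such sign tests within a strain and 7 permutations of the strain labels were made.

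The order of the ratios to A/J differed between the strains. In AcB55, Tmcc2 stood above Rhd on 5 of 6 arrays, Rhd above Cd24a probe 14814 on 5, and Bsg above that probe on 2. Ermap stood above Cd24a probe 10373 on 5 of the 6. Both of these were below the other 4 probes on every AcB55 array. In AcB61 Ermap was lowest on all 8 arrays, and the other 5 probes were not separated: Tmcc2 stood above Rhd on 4 of 8 arrays, Bsg above Rhd on 4, and Cd24a probe 10373 above probe 14814 on 5. Their means of 0.67 to 0.87 lay within 1 SD of each other.

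Other genes with the most similar ratios were found by the root mean square difference of log2 ratios over the 14 arrays, among 5797 single-symbol genes with a value on every array. Nearest to Tmcc2 was Rhd itself (0.29), followed by Gm5088 (0.33) and Rrm2 (0.44), a subunit of ribonucleotide reductase. Nearest to Rhd were Bpgm (0.26), which makes 2,3-bisphosphoglycerate in red cells, Rrm2 (0.26) and Ranbp10 (0.29). Nearest to Bsg were Racgap1 (0.18), a regulator of cell division, Hmgb3 (0.19) and the tubulin gene Tubb2b (0.19). Nearest to Ermap were Armc10 (0.067), Oosp3 (0.085) and Specc1l (0.10), all within 0.26 of A/J in both strains. Likeness here reflects size as well as pattern, so a gene near 0 is close to other genes near 0.

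The probes of Cd24a had no near gene in common. Nearest to probe 10373 were Agtr2 (0.31), an angiotensin receptor, Abhd14b (0.41) and Ssx2ip (0.43). Agtr2 was -0.11 ± 0.097 (SD, n = 6) in AcB55 and 0.78 ± 0.32 (SD, n = 8) in AcB61. Nearest to probe 14814 were Hmgb2 (0.30), a chromatin protein, Zmat1 (0.31) and the heat shock gene Hsp90aa1 (0.32), each higher than A/J in both strains. For the mean of both probes the nearest were Agtr2 (0.24), Lmo7 (0.26) and St3gal6 (0.28), a sialyltransferase.

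Other genes of the red cell surface and membrane passed in both directions. Of 59 such genes listed, 25 were measured. In AcB55 6 were higher than A/J, 4 lower and 15 did not pass, where 20.7% of all features passed, with a median of 0.027 beside -0.0019 over all features. In AcB61 8 were higher, 3 lower and 14 did not pass, where 23.8% of all features passed, with a median of -0.0085 beside -0.00067. Slc4a1, the anion exchanger band 3, had the largest rise, 1.28 ± 0.31 (SD, n = 5) in AcB55 and 1.07 ± 0.23 (SD, n = 8) in AcB61, in the range of Rhd and Tmcc2. The transferrin receptor Tfrc rose by 0.68 ± 0.20 (SD, n = 6) and 0.64 ± 0.20 (SD, n = 8). Mpp1, which ties the membrane skeleton to glycophorin C, rose by 0.53 ± 0.25 (SD, n = 6) and 0.84 ± 0.28 (SD, n = 8). The nucleoside transporter Slc29a1 (0.58 and 0.46), the glucose transporter Slc2a4 (0.47 and 0.25) and the porphyrin transporter Abcb6, which carries the Lan blood group in humans (0.30 and 0.54), were also higher in AcB55 and AcB61 respectively.

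The genes of this list that passed in AcB61 only were Piezo1, a channel opened by stretch (0.15 and 0.22), and the complement regulator Cr1l (0.027 and 0.33), both higher, and the spectrin Sptbn1 (0.0038 and -0.24), lower. Cr1l was the 1 gene of the 25 that passed between the strains, higher in AcB61 by 0.30 (limma adjusted p = 0.0322). Over all features 12.3% passed there. Genes lower than A/J in both were Cd55, a lipid-anchored complement regulator (-0.35 and -0.35), and the tetraspanin Cd81 (-0.26 and -0.27). The tetraspanin Cd151 (-0.28 and -0.10) and the spectrin Sptan1 (-0.44 and -0.15) passed in AcB55. Whether a pass in 1 strain differs from no pass in the other was tested by the difference, which was past the threshold for Cr1l alone. The other 12 genes, among them Cd44, Cd47, Kit and the ferroportin gene Slc40a1, lay between -0.11 and 0.26 in AcB55 and between -0.13 and 0.28 in AcB61. Rhag, the Rh partner, is on the list and was not analysed here.

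**Figure D4:**
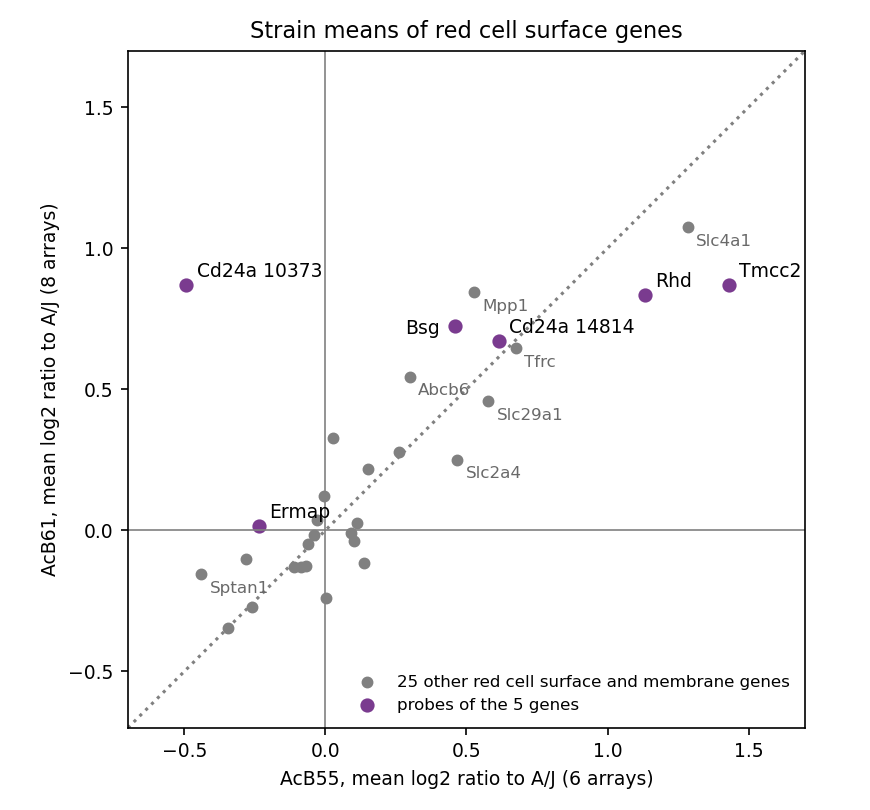
Mean log2 ratio to A/J in AcB61 (vertical, 8 arrays) against AcB55 (horizontal, 6 arrays) for 25 listed red cell surface and membrane genes (grey) and the probes of the 5 genes (purple); the dotted line marks equal means. Cd24a probe 10373, at -0.49 and 0.87, lies far from the line, and Slc4a1 lies near Rhd and Tmcc2.

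Relatives and partners of the 5 genes were measured in part. Of 14 genes of the basigin family and its partners, 8 were measured. In AcB55 2 were higher, where 20.7% of all features passed. In AcB61 1 was higher and 1 lower, where 23.8% of all features passed. Both counts were near those shares. Emb, a relative of basigin and another escort of monocarboxylate transporters, was higher by 0.41 ± 0.11 (SD, n = 6) and 0.42 ± 0.31 (SD, n = 8). Slc3a2, the CD98 heavy chain, was higher in AcB55 by 0.33 (0.19 in AcB61, not past the threshold), and the integrin Itga6 was lower in AcB61 by -0.42. No gene of the list passed between the strains, where 12.3% of all features did. The transporter Slc16a3, which basigin escorts, was at 0.063 and 0.021 and passed in neither strain.

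Tmcc3 was the 1 gene of 5 measured among the Tmcc family and reported partners. It was lower in AcB55, at -0.33 ± 0.15 (SD, n = 6, limma adjusted p = 0.000705), and was -0.071 ± 0.14 (SD, n = 8) in AcB61, higher there than in AcB55 by 0.26 (limma adjusted p = 0.0454). Its direction in AcB55 was opposite to that of Tmcc2. Of 19 Cd24a partners and other lipid-anchored proteins, 5 were measured, beside 20.7% of all features that passed in AcB55 and 23.8% in AcB61. In AcB55 2 were lower, Cd55 and Bst2, and in AcB61 Cd55 and Selp were lower and Prnp, the prion protein gene, was higher. Bst2, an interferon-induced protein, was -0.71 in AcB55 and -0.19 in AcB61, and differed between the strains by 0.52 (limma adjusted p = 0.0074). Of 3 Rh family and 7 butyrophilin family genes listed, 0 were tested here.

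Most measured genes that red cell precursors use for haem and globin rose. Of 12 measured (19 listed), 9 were higher in AcB55, where 9.77% of all features were, and 10 in AcB61, where 10.5% were. None of the 12 was lower, and the medians were 0.42 and 0.61. The largest rises were Abcb10, a mitochondrial transporter (0.85), and Ppox (0.71) in AcB55, and Alad (0.96) and Alas2 (0.92) in AcB61, the last 3 being enzymes of haem synthesis. Between the strains 3 of the 12 passed, all higher in AcB61, where 5.29% of all features were. Hbb-y (0.85, limma adjusted p = 0.000453), an embryonic globin, and Alas2 (0.51, adjusted p = 0.0193) were the largest, in the direction of Cd24a and Ermap. Of 5 measured erythroid regulators (17 listed), 4 were higher in AcB55 and 3 in AcB61. Bcl2l1, a survival factor of red cell precursors, was 0.83 ± 0.28 (SD, n = 6) in AcB55 and 0.074 ± 0.53 (SD, n = 8) in AcB61, and differed by -0.76 (limma adjusted p = 0.0225).

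Markers of cell types also differed from A/J, and their part in the results was not tested. Over all features, 9.77% were higher and 10.9% lower than A/J in AcB55, and 10.5% and 13.3% in AcB61. Between the strains 5.29% of features were higher and 6.98% lower in AcB61. Of the 4 measured red cell precursor markers 3 were higher in each strain, with array means of 0.42 to 0.68 in AcB55 and 0.57 to 0.78 in AcB61, and Hba-a1 passed in neither. Of 19 measured markers of dividing cells (20 listed), 16 were higher in AcB55 and 17 in AcB61, with array means of 0.54 to 0.86 and 0.43 to 0.80. Between the strains 2 of the 19 passed, both lower in AcB61, Mki67 by -1.01 (limma adjusted p = 4.33e-05) and Mcm3 by -0.41 (adjusted p = 0.0159). The median difference of the list was -0.068, and some members lay the other way, such as Stmn1 at 0.53 (adjusted p = 0.0608). Of 6 measured macrophage markers (11 listed), 4 were lower and 1 higher in AcB55, and 2 lower and 1 higher in AcB61. Of 7 measured markers of stroma, vessels and fat (11 listed), 6 were lower in AcB55, and 5 were lower and 1 higher in AcB61. The higher gene, the collagen Col3a1 (0.43), also differed between the strains, by 0.57 (limma adjusted p = 3.1e-05). Of 4 granulocyte markers 1 was higher in AcB55, and 2 were higher and 1 lower in AcB61. The 2 measured platelet and megakaryocyte markers (9 listed) passed as lower in AcB61 and not in AcB55. The 1 T cell marker measured of 9, Satb1, was lower in AcB55 (-0.18) and -0.025 in AcB61.

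The nearest tested genes on each side of the 5 genes are given as a description. Rhd and Ermap lie on chromosome 4, Cd24a and Bsg on chromosome 10 and Tmcc2 on chromosome 1. None of the 4 tested neighbours of Rhd in RefSeq gene order, Man1c1, Maco1, Rsrp1 and Syf2, passed in either strain. Beside Tmcc2, Nuak2 was lower in AcB55 (-0.33) and higher in AcB61 than in AcB55 by 0.47 (limma adjusted p = 0.0047), opposite to Tmcc2, Rbbp5 was higher in AcB55 by 0.19, and Cdk18 and Mdm4 passed in no comparison. Beside Cd24a, Sec63, Mtres1 and Prep passed in no comparison and Atg5 was -0.14 in AcB55 (adjusted p = 0.0352), so no neighbour had the opposed ratios of probe 10373.

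Ermap and Bsg had neighbours that differed between the strains. Both immediate tested neighbours of Ermap, D4Ertd617e and AU022252, were lower in AcB61 than in AcB55, by -0.55 (limma adjusted p = 0.00971) and -0.46 (adjusted p = 0.0396), against 0.25 higher for Ermap. The next genes out had values on the same side as Ermap and did not pass: Ebna1bp2 was -0.16 in AcB55 and 0.091 in AcB61 (difference 0.26, adjusted p = 0.0939), and Ybx1 was -0.18 and -0.0004 (difference 0.18, adjusted p = 0.304). Beside Bsg, the protease gene Gzmm was -0.56 in AcB55 and higher in AcB61 by 0.52 (adjusted p = 0.042). The splicing regulator Ptbp1 was 0.69 in AcB55 and lower in AcB61 by -0.49 (adjusted p = 0.0275). Ptbp1 was 0.20 in AcB61, where it did not pass. Cdc34 was 0.25 in AcB55, not past the threshold, and higher in AcB61 by 0.32 over A/J, the direction of Bsg, and Rnf126 did not pass.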

How the data were processed

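Spleen RNA of AcB55 (6 arrays) and AcB61 (8 arrays) was hybridised with A/J spleen RNA on cDNA arrays with 2 channels. Per the labels, images were quantified with QuantArray 3.0 and imported into GeneSpring; the label text breaks off at a mention of dye swaps, and how the ratios were normalized is not given. The deposited table holds log2 ratios (base 2 taken from the values, not stated), with 14197 to 14588 values per array and array medians from -0.0205 to 0.0087. They were used as deposited, without further centring. Depth does not apply, and the number of arrays limits the precision.

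Of probes with a value, 7849 had 1 gene symbol, 356 several and 6407 none listed; only the first were named. Probes of a gene were averaged, and the 13045 features (6286 of them genes) with values on at least 3 arrays of each strain were fitted with limma 3.58.1 in R 4.3.3 (lmFit and eBayes, a mean per strain), with Benjamini-Hochberg adjustment over all features and a threshold of 0.05. A second fit used 14605 probes singly. The fit was tested on simulated data with independent arrays, so correlated sets of arrays such as those seen here were not covered. Replicate numbers follow accession order and pair no samples. The 5 genes, the gene lists and the tests were chosen with earlier results of these data known. Named were the 5 genes, their 3 most similar genes, the 2 tested neighbours on each side, the red cell surface list (those that passed with values, the others by range) and up to 2 genes of each other list, with a few added after their values were seen (Slc16a3, Hba-a1, Satb1, Stmn1). Alternatives covered centring, scaling, filters, probe averaging, robust fits, left-out arrays, the title number series as a random block, a stricter threshold and exact tests. Promoter windows came from RefSeq (GRCm38.p6), which matched Rhd, Ermap and Tmcc2.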

Additional observations from a re-analysis of the deposited data

Results flagged for a closer look

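Ermap (probe 67) on AcB55 array 1 lay at -0.48, far below the other 5 AcB55 arrays, which ran from -0.22 to -0.15. Among 12 groups of arrays looked at in this way (6 probes in 2 strains), chance gives about 1 such array in 20 groups. Without that array the mean of AcB55 was -0.19 and its fall was still past the threshold, while the difference between the strains was not.

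Ermap differed between the strains by 0.25, Cd24a with both probes averaged by 0.71, and Cd24a probe 10373 alone by 1.36, each by the test of the difference itself and each higher in AcB61. For probe 10373 every AcB55 array was below A/J and every AcB61 array above it. On probe 14814 of the same gene all 14 arrays were above A/J.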

How the results depend on the processing

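The values of the 5 genes were recomputed over the 3 comparisons in every alternative fit. Many means could not change: leaving out an array of 1 strain does not move the mean of the other. The median of 1 or 2 probes is their mean, and the filters removed no value of these genes. The exact tests were not counted. Adjusted over the 15 gene tests, the exact permutation also called Bsg (adjusted p = 0.0364) and Tmcc2 (adjusted p = 0.0454) between the strains. Of 433 values recomputed in the fits, 405 kept their direction and side of the threshold, 14 lost the call, 9 gained one and 5 changed sign. Of those 5, Ermap in AcB61, not called and near 0, was -0.0068 with robust regression and -0.0166 without AcB61 arrays 2, 6 and 8 (-0.0154 to 0.0390 with single arrays left out), and Cd24a in AcB55 was -0.4933 on probe 10373. The number of the 5 genes past the threshold between the strains was 1 without the 2 AcB55 arrays whose titles end in b, 1 without AcB61 arrays 2, 6 and 8, 1 without AcB55 arrays 1 and 2, 1 at a threshold of 0.01, 4 without AcB61 arrays 3, 5 and 7, 4 with the title number series as a random block (estimated correlation -0.141), and 1 to 3 with single arrays left out. Under the block Bsg (0.27, adjusted p = 0.0253) and Tmcc2 (-0.54, adjusted p = 0.0295) were added. Without the arrays ending in b, Bsg was at 0.19 (limma adjusted p = 0.313) and Tmcc2 at -0.55 (limma adjusted p = 0.166). The estimated correlation was below 0, so arrays of a title series were on average not more alike than the others. More features were called over the whole array with the block, so these added calls are not particular to the 2 genes. Tmcc2 was also called with arrays scaled to a common spread (-0.61, adjusted p = 0.0321). The 1601 features past it between the strains became 705 without the arrays ending in b, 2602 with the block, 2781 without AcB61 arrays 3, 5 and 7, 2545 without arrays 2, 6 and 8, 517 at 0.01, and 854 to 1694 with single arrays left out. At 0.01, 1698 features passed in AcB55 and 1803 in AcB61. The sets without AcB61 arrays 3, 5 and 7 or 2, 6 and 8, or AcB55 arrays 1 and 2, were chosen after seeing the data. The causes of these shifts were not tested. No paired analysis was possible because replicate numbers come from accession order. Signal over background is not known here, so no limit from dim spots can be given.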
